A study of Mus musculus with 4 samples.

Results

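The genes described here are the integrin and laminin chains of the mouse: all genes with a symbol of the form Itga (a number, or one of the letters v, d, e, l, m and x), Itgb1 to Itgb8, Lama, Lamb or Lamc. The symbols alone chose them, and no measured value entered the choice. There were 37 such genes among the 33696 in the files, made up of 18 integrin alpha chains, 8 integrin beta chains, 5 laminin alpha chains, 3 laminin beta chains and 3 laminin gamma chains. They were followed in Achilles tendon cells of 4 single-cell RNA libraries.

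Integrins are receptors that span the cell membrane as pairs of 1 alpha and 1 beta chain and tie the matrix outside the cell to its actin skeleton; the pair decides whether collagen, fibronectin, laminin or another cell is bound. Laminins are secreted trimers of 1 alpha, 1 beta and 1 gamma chain that assemble into the basement membrane around vessels, nerves, muscle fibres and some fibroblasts. In tendon, the integrins with a collagen-binding alpha chain face the collagen fibres, while laminins lie around the vessels, the nerves and the sheath layers.

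The libraries came from injured tendon of mice aged 6 to 8 weeks (adult injury), uninjured tendon of mice of that age (adult control), injured tendon of mice at postnatal day 3 (neonate injury) and uninjured tendon at postnatal day 3 (neonate control), 1 library each. The labels give no strain, genotype, sex, number of mice, time between injury and collection, or whether the age is that at injury or at collection. They also do not say whether the libraries were prepared together, and adult control was deposited apart from the others. All tissue was digested with collagenase and DNase, so surface and matrix genes were read as RNA in freed cells. With 1 library per group, no test between conditions was possible, and every interval given covers counting error only, not the spread between animals.

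After filtering, 4454, 5814, 13112 and 9559 cells remained in adult injury, adult control, neonate injury and neonate control, with medians of 5552.5 to 10338 unique molecular identifiers (UMIs, each a counted RNA molecule) per cell. Between 3 and 49 cell barcodes were shared by any pair of libraries, at most 0.45% of the smaller one. The libraries differed in sex-linked RNA: the share of fibroblast-lineage cells with UMIs of Y-linked genes and none of Xist was 0.056%, 0%, 14.5% and 87.4% in the same order, so sex cannot be told apart from age or from neonatal injury where neonate control is used. Cells were assigned to a class by counting markers, none of which is an integrin or a laminin, and the median cell of the fibroblast-lineage, endothelial, mural and macrophage classes carried 6 or more markers of its class in each library. Joint clustering gave the same class to 94.3% or more of the cells of these 4 classes, other than macrophages of adult injury (81.8%). Dendritic cells fell into a cluster that could not be named, so their values rest on the gate alone.

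Levels are given as CPM, the UMIs of a gene per 1000000 UMIs of a class, with all cells of that class in a library added up, where there were at least 50. A sum of 50 UMIs has a 95% Poisson interval of 0.742 to 1.32 times its value, and 1000 UMIs one of 0.939 to 1.06 times. RNA free in the suspension can add UMIs to cells that do not make a gene. A gene that stayed below 10% of the level of its leading class in both libraries compared is therefore named as possible free RNA. Of the 37 genes, 33 reached 20 CPM in at least 1 of the 32 sums. Itgad (integrin alpha D, a leukocyte chain), Lama1 and Lamc3 were among those that did not, and Lama1, the laminin alpha chain of early embryos, was at 2.86 CPM or less in all 32.

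The classes differed in their chains but shared many of them. In edgeR's quasi-likelihood test with library as a block, 36 of the genes were tested among 18045, and 6 classes present in 3 or 4 libraries were each set against the mean of the other 12. The number called higher (adjusted p below 0.05 and at least 2-fold) was 18 in the fibroblast lineage, against 27.2% of all genes tested, 17 in endothelial cells, against 18.9%, and 18 in mural cells, against 20.1%. It was 14 in Schwann cells, against 19.9% of all genes, 11 in macrophages, against 18.7%, and 8 in myogenic cells, against 14.9%. These calls overlapped, as Lamb1 and Lamc1 were each called higher in every tested class but macrophages. Calls of lower levels were few: 2 in the fibroblast lineage, where 2.23% of all genes were called, 2 in endothelial cells (2.04%), 1 in mural cells (2.75%), 2 in Schwann cells (3.77%), 2 in macrophages (3.08%) and 4 in myogenic cells (5.62%). Many genes have no counts in the rarer classes, which lowers the mean they are set against. The libraries stand in for replicates here and differ in condition, so the spread behind these p-values includes differences between conditions.

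A second fit, chosen after these results were seen, used only the 4 classes present in all 4 libraries, with 35 of the genes and 15140 genes in all. It called 13 genes higher and 8 lower in the fibroblast lineage (16.4% and 9.02% of all genes), 10 higher and 10 lower in endothelial cells (12.3% each), 11 higher and 6 lower in mural cells (12.5% and 9.80%), and 7 higher and 20 lower in macrophages (15.5% and 22.6%). Called higher in both fits were 12, 10, 10 and 6 of the genes in the same order. Genes described below as called in both fits are from these; 6 calls of higher levels had the opposite sign in the second fit, for Itga5 in endothelial cells, Lama3 and Itga9 in the fibroblast lineage, Itga6 in macrophages, and Itga11 and Itga9 in mural cells.

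**Figure D1:**
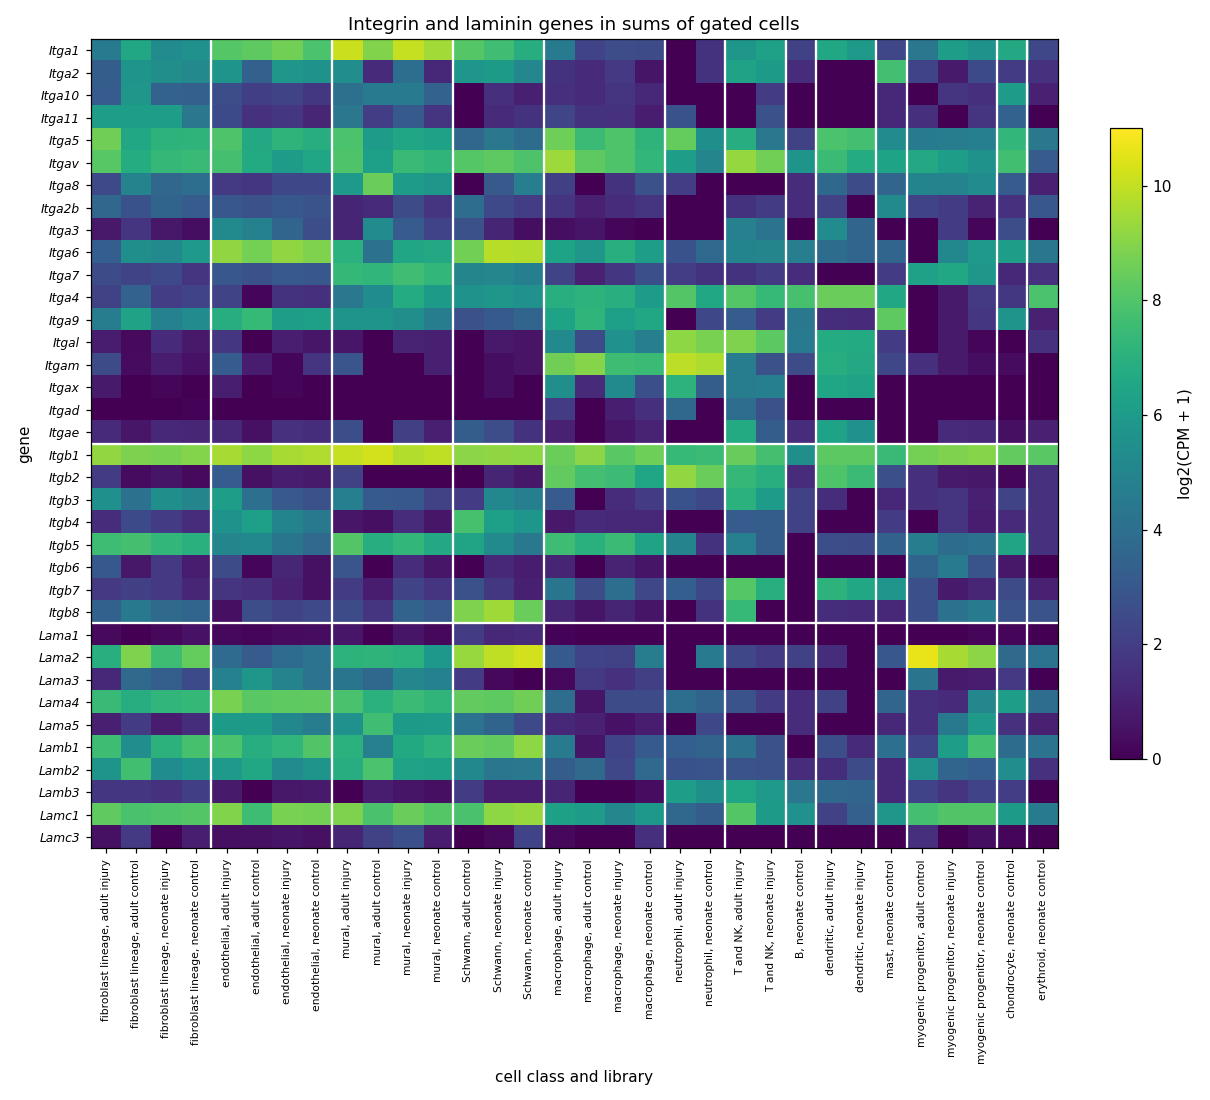
Levels of 36 of the genes as log2(CPM + 1) in the 32 sums of at least 50 gated cells, with integrin alpha chains at the top, integrin beta chains in the middle and laminin chains at the bottom; white lines separate the cell classes and gene families. Itgb1 is bright in nearly every column, Itgam, Itgal and Itgb2 are bright in leukocytes, and Lama2 is brightest in Schwann and myogenic columns.

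The collagen-binding alpha chains divided between classes. Itga11, the chain of alpha 11 beta 1, a receptor for fibrillar collagen on fibroblasts, had 70.1, 68.5, 68.3 and 19.8 CPM in fibroblast-lineage cells of adult injury, adult control, neonate injury and neonate control. Only neonate control was low, and the gene was called higher in this lineage in both fits (log2 difference 4.32 from the other 3 classes, adjusted p = 4.17e-08, edgeR). Itga10, whose alpha 10 beta 1 receptor is known from cartilage, had 8.15, 55.8, 10.1 and 9.47 CPM in the lineage in the same order of libraries. Adult control alone was high, and the only other sum above 50 CPM was the chondrocytes of neonate control (66.9 CPM). Itga1, a receptor chain for collagen of basement membranes, was led by mural cells, the pericytes and smooth muscle around vessels, with 1124, 484, 1040 and 715 CPM. Mural Itga1 was higher in both injured libraries than in their controls, and the gene was called higher in both fits (log2 difference 3.84 in the second, adjusted p = 1.48e-05, edgeR). Itga2, the other chain of this type, was highest in the 79 mast cells of neonate control (211 CPM).

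Among the chains that bind the RGD sequence of fibronectin and vitronectin, Itga5 and Itgav were broad. Itga5, the alpha chain of the fibronectin receptor, had 388, 93.0, 137 and 141 CPM in the fibroblast lineage, and 375, 181, 248 and 143 CPM in macrophages. Itgav, which pairs with several beta chains, had 670, 311, 252 and 156 CPM in macrophages, above the other 3 main classes in each library but neonate control. Adult injury was the highest library for both genes in both classes. Itga8, known from smooth muscle and kidney as the receptor chain for nephronectin, had 60.5, 369, 64.2 and 55.6 CPM in mural cells. The other classes stayed below 40 CPM of Itga8, and mural cells were called in both fits (second fit: log2 difference 4.18, adjusted p = 3.54e-05, edgeR).

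The beta partners of Itgav were split as well. Itgb5 was shared by the fibroblast lineage (193, 217, 156 and 125 CPM), macrophages (189, 124, 177 and 79.3 CPM) and mural cells (265, 115, 153 and 99.7 CPM). Itgb3 had 44.8, 16.8, 44.0 and 31.1 CPM in the fibroblast lineage and 128 CPM in T and NK cells of adult injury. Itgb8, whose alpha v beta 8 receptor activates latent TGF-beta, was led by Schwann cells with 463, 692 and 356 CPM in adult control, neonate injury and neonate control (first fit: log2 difference 7.13, adjusted p = 9.30e-10, edgeR). It was also at 166 CPM in T and NK cells of adult injury, against 0 of 352004 UMIs in those of neonate injury, so at least 19.5-fold higher at a floor of 3 counts per library. Itgb6, an epithelial chain in most tissues, stayed at 21.3 CPM or less, with its highest level in myogenic cells of neonate injury.

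The laminin receptors marked vessels and nerve. Itga6 had 576, 420, 575 and 463 CPM in endothelial cells and 409, 893 and 854 CPM in Schwann cells of adult control, neonate injury and neonate control. Its partner Itgb4, which forms the alpha 6 beta 4 receptor, had 223, 72.3 and 53.7 CPM in Schwann cells of the same libraries and 47.4, 72.1, 29.7 and 20.6 CPM in endothelial cells. Both were called higher in both classes in the first fit, and endothelial Itgb4 had a log2 difference of 4.83 in the second (adjusted p = 2.06e-08, edgeR). Itga7, the laminin receptor chain of muscle, was led by mural cells with 158, 150, 194 and 155 CPM, where the 4 libraries lay close together, followed by myogenic cells with 76.9, 91.6 and 55.1 CPM in adult control, neonate injury and neonate control. Itga3 stayed below 40 CPM in all sums.

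Itgb1, the partner of most alpha chains above, was the most widely found chain. It had 586, 449, 440 and 504 CPM in the fibroblast lineage, 757, 559, 744 and 814 CPM in endothelial cells and 1045, 1200, 850 and 996 CPM in mural cells. Its ratios between libraries stayed within 2-fold in all 6 classes compared. The lowest sum was that of 62 B cells of neonate control, at 43.0 CPM.

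Leukocytes carried the chains that pair with Itgb2 and Itgb7, which bind adhesion molecules of the vessel wall and other cells. Itgam, the alpha chain of Mac-1, had 963 CPM in neutrophils of adult injury and 810 CPM in those of neonate control, and 391, 511, 190 and 181 CPM in macrophages. Itgal, the alpha chain of LFA-1, had 562 and 435 CPM in the same neutrophils and 471 and 295 CPM in T and NK cells of adult injury and neonate injury. Itgb2 itself followed with 592 and 360 CPM in neutrophils and 322, 206, 187 and 86.9 CPM in macrophages. In macrophages Itgam, Itgb2, Itgal and Itgax were called higher in both fits, with log2 differences of 5.14 to 8.42 in the second (adjusted p between 6.70e-09 and 1.70e-06, edgeR). The alpha 4 chain Itga4 was highest in dendritic cells (361 and 356 CPM in adult injury and neonate injury), and Itga9, a relative of it, in mast cells of neonate control (312 CPM) and lymphatic endothelium (275, 323 and 249 CPM in adult injury, adult control and neonate injury). Itgae, which holds T cells to epithelium, reached 105 CPM in T and NK cells of adult injury and 8.52 CPM in those of neonate injury, where it rests on 3 UMIs.

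Itgam and Itgax lie on chromosome 7 and were found in macrophages over different ranges, as Itgam was present at 181 CPM or more in all 4 libraries and Itgax at 43.4, 1.56, 36.8 and 5.45 CPM. Their promoter windows, shown for this difference, come from RefSeq on GRCm38.p6 and cover 250 bases before to 50 after the start; capitals mark GAGGAA or its reverse complement TTCCTC, the core of sites bound by PU.1, a myeloid factor. The Itgam window is chr7:128062390-128062689 on the plus strand and holds 3 matches, and the Itgax window is chr7:128129300-128129599 on the plus strand and holds 0. A match was present in 28.3% of 32851 windows of 300 bases and in 14 of 26 windows of the 23 genes of the set found in the table, counting both strands and allowing no mismatch. The part of the motif in the levels was not tested.
Itgam: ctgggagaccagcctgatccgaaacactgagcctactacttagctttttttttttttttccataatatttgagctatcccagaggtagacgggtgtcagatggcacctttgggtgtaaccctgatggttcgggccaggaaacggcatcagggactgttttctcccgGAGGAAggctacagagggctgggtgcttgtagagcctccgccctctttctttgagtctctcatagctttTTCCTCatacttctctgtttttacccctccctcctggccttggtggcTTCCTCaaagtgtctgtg
Itgax: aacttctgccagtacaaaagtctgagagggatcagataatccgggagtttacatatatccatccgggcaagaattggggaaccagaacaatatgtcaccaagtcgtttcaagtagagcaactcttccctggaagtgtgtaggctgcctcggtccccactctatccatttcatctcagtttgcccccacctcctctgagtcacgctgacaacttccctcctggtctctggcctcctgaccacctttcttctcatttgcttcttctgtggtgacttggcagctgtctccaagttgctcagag

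Among the laminin alpha chains, Lama2, the chain of muscle and nerve laminin that is missing in a congenital muscular dystrophy, reached the highest level of any gene in the set. It had 1604, 747 and 548 CPM in myogenic cells of adult control, neonate injury and neonate control, 626, 986 and 1201 CPM in Schwann cells of the same libraries, and 119, 469, 191 and 333 CPM in the fibroblast lineage. Lama4, the chain of vessel laminin, had 445, 288, 305 and 317 CPM in endothelial cells and 332, 304 and 395 CPM in Schwann cells of adult control, neonate injury and neonate control, above the endothelium of both control libraries. Lama5, which joins it in mature vessels, had 45.8, 197, 62.6 and 65.6 CPM in mural cells and 62.6, 62.0, 34.6 and 24.6 CPM in endothelial cells. Lama4 was called higher in endothelial cells in both fits (second fit: log2 difference 2.57, adjusted p = 3.91e-06) and Lama5 in mural cells (4.20, adjusted p = 3.75e-07, edgeR). Lama3, an epithelial chain in most tissues, had 27.6, 55.0, 29.0 and 17.3 CPM in endothelial cells and 18.2, 11.8, 33.2 and 27.8 CPM in mural cells, so that endothelium led in adults and mural cells in neonates.

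Lamb1, the beta chain of most early laminins, was highest in Schwann cells, at 360, 331 and 556 CPM in adult control, neonate injury and neonate control. Lamc1, the common gamma chain, was present in all 6 classes compared. It had 317, 230, 251 and 267 CPM in the fibroblast lineage, 485, 191, 440 and 417 CPM in endothelial cells and 226, 555 and 628 CPM in Schwann cells of adult control, neonate injury and neonate control. Adult control was the lowest library in each of these classes. Lamb3, a beta chain of epithelial laminin, was at 10 CPM or less in the fibroblast lineage, vessels and nerve, but at 87.2 and 59.7 CPM in T and NK cells of adult injury and neonate injury and 70.6 and 44.0 CPM in neutrophils of adult injury and neonate control, from 21 to 43 UMIs each. Lama3, the alpha chain of that laminin, had 0 UMIs in all 4 of these sums.

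In the fibroblast lineage of adults, injury went with more RNA of Itga5, Itgav, Itgb3 and Lamb1. It went with less RNA of most collagen-binding alpha chains, Itga6, Lama2 and Lamb2. Of 33 genes with at least 50 UMIs in the 2 libraries, 8 were at least 2-fold higher after injury, where 16.5% of all genes were, and 15 at least 2-fold lower, where 15.3% were. The median log2 ratio of the 33 was -0.17, against 0.03 for all 15381 genes measured. Of these 23 genes, 9 were possible free RNA.

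Itga5 was 2.06 higher on the log2 scale in adult injury than in adult control (95% interval 2.01 to 2.11), Itgav 1.33 higher (1.28 to 1.37) and Itgb3 1.42 higher (1.29 to 1.54). These 3 chains are parts of receptors for fibronectin and vitronectin, whereas Itgb1, the partner of most alpha chains, stayed within 2-fold (log2 ratio 0.38). The collagen-binding Itga1 had a log2 ratio of -2.13 (-2.24 to -2.03), Itga2 one of -2.56 (-2.72 to -2.40) and Itga10 one of -2.77 (-2.94 to -2.61), whereas that of Itga11 was 0.03. Itga6 and Itga9 were also lower, with log2 ratios of -2.31 and -1.74, whereas the laminin-binding Itga7 stayed within 2-fold (0.36). The same libraries differed in mural markers summed over the gated fibroblasts (137 CPM in adult injury and 398 CPM in adult control), and the part of this in the lower Itga8 (4.31 and 28.9 CPM, possible free RNA) and Itga1 was not tested. The leukocyte chains Itgam (4.90 and 0.24 CPM) and Itgb2 (2.92 and 0.24 CPM) were higher but were possible free RNA, and macrophages made up 29.4% of all cells in adult injury and 2.94% in adult control; their part was not tested.

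The laminin chains of adult fibroblasts moved in opposite directions. Lama2 had 119 CPM in adult injury and 469 CPM in adult control (log2 ratio -1.98, -2.03 to -1.94), Lamb2 had 50.4 and 201 CPM (log2 ratio -1.995, -2.06 to -1.93) and Lamb1 had 193 and 41.2 CPM (log2 ratio 2.23, 2.16 to 2.30). Lama4 and Lamc1 stayed within 2-fold. Markers of myogenic cells, which lead Lama2, summed to 34.1 CPM in the fibroblasts of adult injury and 189 CPM in those of adult control; their part in the lower Lama2 was not tested.

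**Figure D2:**
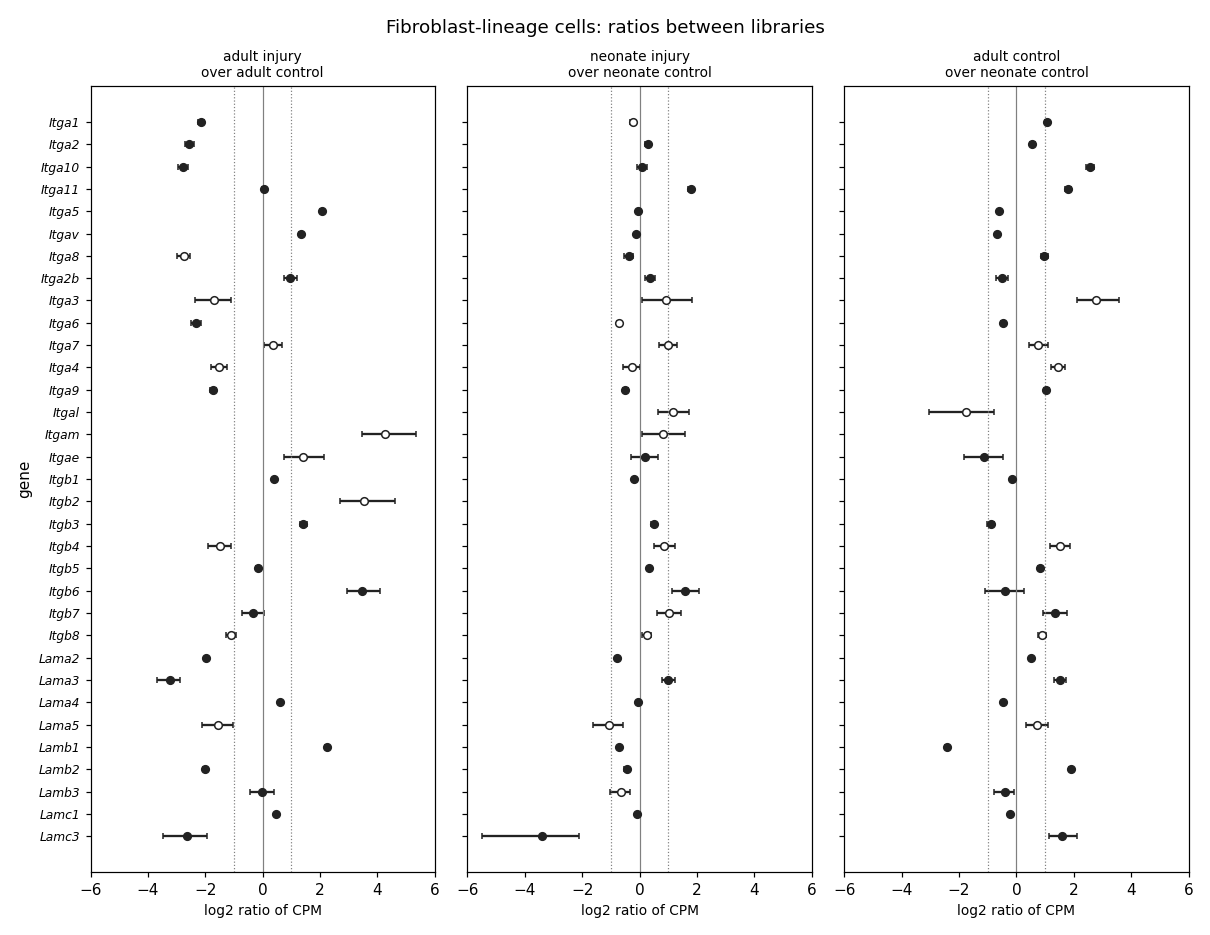
Log2 ratios of CPM in fibroblast-lineage cells for genes with at least 50 UMIs in the libraries compared, with 95% exact binomial intervals; open circles mark possible free RNA and dotted lines mark 2-fold. Adult injury over adult control has 23 genes at least 2-fold apart and neonate injury over neonate control has 7.

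In vessels of adults, injury went with higher levels in 8 of 23 endothelial genes, where 9.34% of all genes were called, and with lower levels in 0, where 7.81% were called. Endothelial Itga2 had 50.7 and 9.36 CPM in adult injury and adult control (log2 ratio 2.43, 2.06 to 2.83), Itgb3 had 67.8 and 15.1 CPM (2.16, 1.87 to 2.48), Itga5 had 253 and 98.5 CPM (1.36, 1.23 to 1.49), and Lamc1 had 485 and 191 CPM (1.35, 1.25 to 1.44). Itgav and Lamb1 were also higher, as was Itgam as possible free RNA. The collagen-binding Itga1 (276 and 308 CPM) and Itgb5 (31.7 and 34.3 CPM) stayed within 2-fold. Mural markers in these endothelial sums were 689 CPM in adult injury and 396 CPM in adult control, and macrophage markers 145 and 58.0 CPM; their part was not tested.

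In mural cells, 9 of 21 genes were at least 2-fold higher in adult injury, where 14.9% of all genes were, and 4 at least 2-fold lower, where 10.6% were; the injured sum held 122 cells and the control sum 360. Itga2 had 41.1 and 1.52 CPM (log2 ratio 4.59, 3.33 to 6.67, from 70 and 4 UMIs), Itga6 had 129 and 16.8 CPM (2.93, 2.47 to 3.45) and Lamb1 had 131 and 26.3 CPM (2.31, 1.92 to 2.73). Itga5, Itgav, Itgb3, Itgb5, Itga1 and Lamc1 were also higher. Itga3 (1.17 and 38.5 CPM), Itga8 (60.5 and 369 CPM), Lama5 (45.8 and 197 CPM) and Lamb2 (115 and 232 CPM) were lower, the first 2 being alpha chains and the last 2 laminin chains. Endothelial markers, whose class leads Itga6, summed to 315 CPM in the mural cells of adult injury and 322 CPM in those of adult control. Their part in the mural Itga6 values was not tested.

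In macrophages, 9 of 20 genes were at least 2-fold higher in adult injury, where 15.1% of all genes were, and 0 lower, where 9.0% were. Itgax, a chain of dendritic cells and of recruited macrophages, had 43.4 and 1.56 CPM (log2 ratio 4.57, 3.24 to 7.08, from 506 and 3 UMIs), Itgal had 36.0 and 4.69 CPM (2.86, 2.00 to 4.08), Itgb7 had 18.3 and 4.69 CPM (1.89, 1.02 to 3.12), Itgav had 670 and 311 CPM (1.11, 0.99 to 1.23) and Itga5 had 375 and 181 CPM (1.05, 0.89 to 1.21). Itgam differed the other way within 2-fold, with 391 and 511 CPM. The other 4 genes, Lamb1, Lama4, Itga1 and Itgb3, were possible free RNA: fibroblast markers in these sums were 337 CPM in adult injury and 130 CPM in adult control, and endothelial markers 96.4 and 36.5 CPM, and their part was not tested. Itgb3 was at 0 in adult control, so its 8.06 CPM in adult injury was at least 5.16-fold higher at the floor of 3 counts. In adult injury, macrophage Itgal and Itgb7 lay below 10% of the levels in neutrophils (562 CPM) and T and NK cells (272 CPM). Adult control held 4 neutrophils and 44 T and NK cells, too few for a sum to set them against. The part of free RNA in these 2 genes was not tested.

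**Figure D3:**
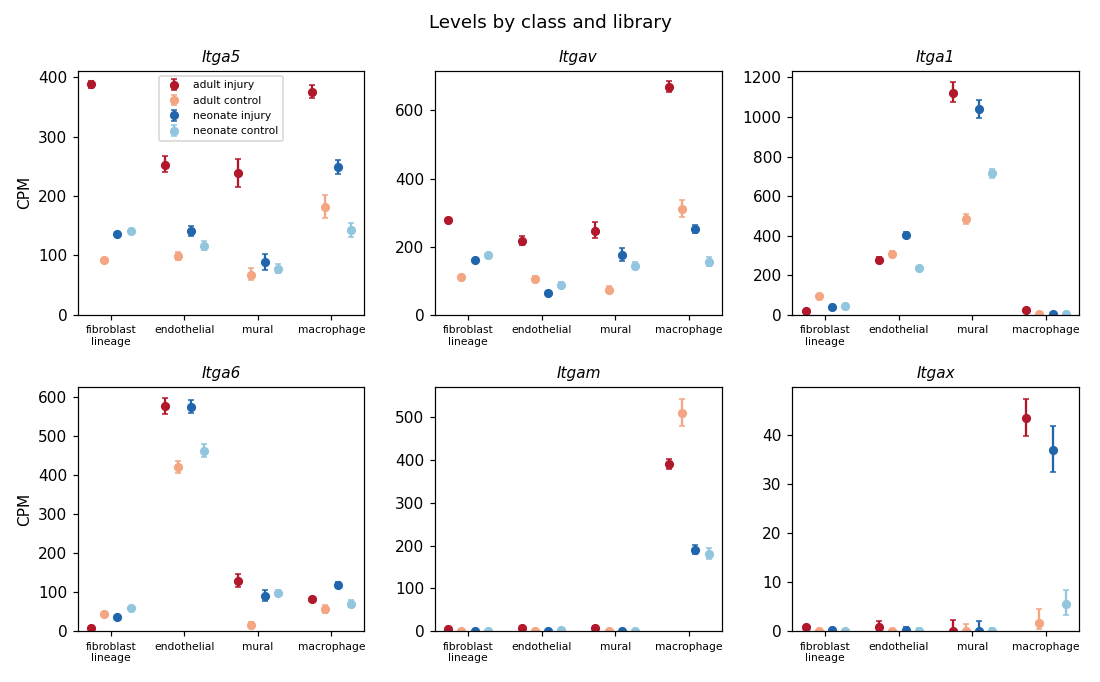
CPM of 6 integrin alpha chains in 4 cell classes, with 95% exact Poisson intervals, for adult injury, adult control, neonate injury and neonate control from left to right. Itga5 is highest in adult injury within each class, Itga1 is led by mural cells, Itga6 by endothelial cells, and Itgam and Itgax by macrophages.

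Neonatal injury went with fewer differences of this size. In the fibroblast lineage 5 of 33 genes were at least 2-fold higher in neonate injury than in neonate control, where 8.95% of all genes were, and 2 were lower, where 11.8% were. Of these 7 genes, 3 were possible free RNA. Itga11 was the only gene of the 7 above 10 CPM, with 68.3 and 19.8 CPM (log2 ratio 1.78, 1.69 to 1.88). Among Y-positive cells without Xist its log2 ratio was 0.93, and 4 genes in place of 7 were at least 2-fold apart. Itga5 (137 and 141 CPM), Itgav (161 and 176 CPM) and Itga10 (10.1 and 9.47 CPM) stayed within 2-fold, as did Lamb1 (134 and 221 CPM) and Lamb2 (39.3 and 53.8 CPM).

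In the other classes of neonates, 1 of 22 endothelial genes was higher in injury (7.82% of all genes) and 0 lower (3.99%), namely Itga3 with 11.04 and 5.26 CPM. In mural cells 2 of 20 were higher (6.86%) and 1 lower (4.16%), with Lama2 at 128 and 57.3 CPM and Itga10 at 21.2 and 9.97 CPM. In macrophages 4 of 17 were higher (7.42%) and 3 lower (8.74%): Itgax had 36.8 and 5.45 CPM (log2 ratio 2.72, 2.10 to 3.49), Itgb5 had 177 and 79.3 CPM, Itgb2 had 187 and 86.9 CPM and Itgb7 had 14.6 and 4.09 CPM. The 3 lower genes were laminin chains: Lamb2 had 4.04 and 12.5 CPM, and as possible free RNA Lama2 had 3.44 and 23.7 CPM and Lamb1 3.59 and 7.63 CPM. Among Y-positive macrophages without Xist the log2 ratio of Itgax was 3.04, that of Itgb2 1.68 and that of Itgb5 0.30. Itgax was thus higher in the macrophages of both injured libraries than in those of their own controls. Clustering gave the macrophage class to 81.8% of these gated cells in adult injury and 95.9% in adult control. The shares were 95.5% in neonate injury and 94.9% in neonate control. The part of dendritic-like cells in the Itgax values was not tested. In Schwann cells 2 of 21 were higher (7.17%) and 1 lower (6.99%), and Itga8 had 7.37 and 24.9 CPM and Lama5 10.8 and 4.43 CPM. In myogenic cells 1 of 16 was higher (5.75%) and 3 lower (6.36%): Itgb6 had 21.3 and 6.16 CPM, Lamb1 69.6 and 209 CPM, Lama5 20.5 and 59.3 CPM and Lama4, as possible free RNA, 1.47 and 33.2 CPM.

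Between uninjured adult and neonate fibroblasts, 11 of 32 genes were at least 2-fold higher in adult control, where 12.1% of all genes were, and 3 lower, where 17.8% were. Of these 14 genes, 4 were possible free RNA. The median log2 ratio of the 32 was 0.62, against -0.12 over 16159 genes. Itga10 had 55.8 CPM in adult control and 9.47 CPM in neonate control (log2 ratio 2.56, 2.43 to 2.69), Itga11 had 68.5 and 19.8 CPM (1.79, 1.69 to 1.88), Itga1 had 94.7 and 45.7 CPM (1.05, 0.98 to 1.12) and Itga9 had 79.2 and 38.4 CPM (1.04, 0.97 to 1.12). Collagen-binding chains were thus at least 2-fold higher in adult control than in neonate control, other than Itga2 (50.7 and 34.7 CPM), which stayed within 2-fold. This concerns these libraries alone, as the injured libraries of the 2 ages did not differ in the same way. Tenocyte-like cells, defined below, made up 2289 of 3650 lineage cells in adult control and 1340 of 5216 in neonate control. They had more Itga1, Itga2, Itga10 and Itga11 than the other cells in each library. Itga10 was at least 2-fold higher in adult control within tenocyte-like cells but within 2-fold in the others. The part of this makeup was not tested. Lamb2 had 201 and 53.8 CPM (1.90, 1.85 to 1.96), Lama3 had 13.1 and 4.57 CPM (1.52, 1.31 to 1.73) and Lamb1 had 41.2 and 221 CPM (-2.42, -2.49 to -2.35). The age and adult injury comparisons share adult control, so a value particular to that library enters both, with opposite signs.

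Vessels of the uninjured tendons differed by age as well. In endothelial cells 8 of 22 genes were higher in adult control (16.9% of all genes) and 4 lower (9.58%), with Itga3 at 27.3 and 5.26 CPM, Itgb4 at 72.1 and 20.6 CPM, Lama3 at 55.0 and 17.3 CPM and Lama5 at 62.0 and 24.6 CPM, and with Itga2 at 9.36 and 47.8 CPM, Lamc1 at 191 and 417 CPM and Lamb1 at 114 and 254 CPM. In mural cells 7 of 20 were higher (10.4%) and 4 lower (12.7%): Itga8 had 369 and 55.6 CPM (log2 ratio 2.73, 2.54 to 2.93), Itga3 38.5 and 3.64 CPM, Lamb2 232 and 75.9 CPM and Lama5 197 and 65.6 CPM, while Lamb1 had 26.3 and 136 CPM and Itga6 16.8 and 97.6 CPM. Lamb1 was thus lower in adult control than in neonate control in all 3 of the fibroblast lineage, endothelium and mural cells. Lama2, counted as lower in endothelial and as higher in mural cells, was possible free RNA in both.

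In macrophages 3 of 13 genes were higher in adult control (10.1%) and 2 lower (9.42%), with Itgam at 511 and 181 CPM, Itgb2 at 206 and 86.9 CPM, Itga4 at 135 and 66.2 CPM and Itgal at 4.69 and 25.1 CPM. The Itgal level of neonate control lay below 10% of that in neutrophils of this library, and adult control gave no neutrophil sum. Lama2, the other lower gene (log2 ratio -2.61), was possible free RNA. In Schwann cells, of which adult control held 77, 3 of 19 were higher (15.6%) and 4 lower (15.5%). Their Itgb4 had 223 and 53.7 CPM (log2 ratio 2.06, 1.68 to 2.41), Itgb5 85.8 and 20.1 CPM and Itga1 272 and 115 CPM, while Lamc1 had 226 and 628 CPM, Itga6 409 and 854 CPM, Itgb3 2.86 and 25.8 CPM, and Itga8 was at 0 in adult control and thus at least 2.90-fold lower. In the 63 myogenic cells of adult control 3 of 15 were higher (12.3%) and 6 lower (21.6%). Those higher were Lama2 at 1604 and 548 CPM (log2 ratio 1.55, 1.44 to 1.65), Lamb2 at 48.3 and 8.85 CPM (2.46, 1.73 to 3.14) and Itgav at 98.3 and 48.7 CPM. Lamb1 had 3.58 and 209 CPM and Lama5 1.79 and 59.3 CPM, and Itga6, possible free RNA here, was at 0 UMIs in adult control and 60.5 CPM in neonate control, at least 11.3-fold lower. The remaining lower genes, Lama4 (1.79 and 33.2 CPM), Itgb8 (5.36 and 22.0 CPM) and Itga1 (19.7 and 49.8 CPM), were also possible free RNA.

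The beta 1 and beta 2 laminin chains, which occupy the same place in the trimer, give a measure within one library: the share of Lamb1 among the UMIs of Lamb1 and Lamb2. In fibroblast-lineage cells this share was 79.3% (95% exact binomial interval 78.5 to 80.1) in adult injury, 17.0% (16.3 to 17.7) in adult control, 77.4% (76.5 to 78.2) in neonate injury and 80.4% (79.8 to 81.0) in neonate control. In mural cells it was 53.2%, 10.2%, 55.9% and 64.3%, and in endothelial cells 79.4%, 55.2%, 79.6% and 83.5%. Adult control was the low library in all 3 classes, and the other 3 libraries lay closer to each other than to it. Since the share is a ratio of 2 genes, it does not depend on how CPM were scaled, and the share itself says nothing of which chain is the more abundant protein.

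The share was not low in all cells of adult control. It was 77.4% (73.2 to 81.2) in lymphatic endothelium, against 46.6% (43.7 to 49.5) in blood endothelium of the same library, and 91.3% (85.3 to 95.4) in Schwann cells. In adult injury it was 82.3% and 78.7% in lymphatic and blood endothelium. Within the fibroblast lineage, tenocyte-like cells of adult control had 4.71% and the other fibroblast-lineage cells 31.0%, against 74.5% and 82.1% in adult injury. Keeping doublets or taking classes from clusters left the fibroblast shares of adult injury at 79.4% and 79.7% and those of adult control at 16.6% and 17.3%. The promoter windows of both genes are shown because these 2 chains make up the share. They come from a reference genome and not from these libraries, and their part in the share was not tested. They are RefSeq windows on GRCm38.p6 at chr12:31265043-31265342 for Lamb1 and chr9:108479612-108479911 for Lamb2, both on the plus strand. Each holds 1 match of the motif above, in capitals.
Lamb1: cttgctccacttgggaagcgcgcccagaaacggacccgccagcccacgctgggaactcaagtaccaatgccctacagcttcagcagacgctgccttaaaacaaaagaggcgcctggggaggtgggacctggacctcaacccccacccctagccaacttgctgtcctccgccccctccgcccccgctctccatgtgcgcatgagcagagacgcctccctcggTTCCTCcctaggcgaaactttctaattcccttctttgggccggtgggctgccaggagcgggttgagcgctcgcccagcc
Lamb2: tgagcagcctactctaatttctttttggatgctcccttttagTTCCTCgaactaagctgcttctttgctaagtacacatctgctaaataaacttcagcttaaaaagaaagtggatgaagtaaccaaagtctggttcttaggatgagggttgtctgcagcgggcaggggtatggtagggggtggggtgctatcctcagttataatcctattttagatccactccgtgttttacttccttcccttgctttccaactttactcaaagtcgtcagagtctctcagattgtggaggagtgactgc

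**Figure D4:**
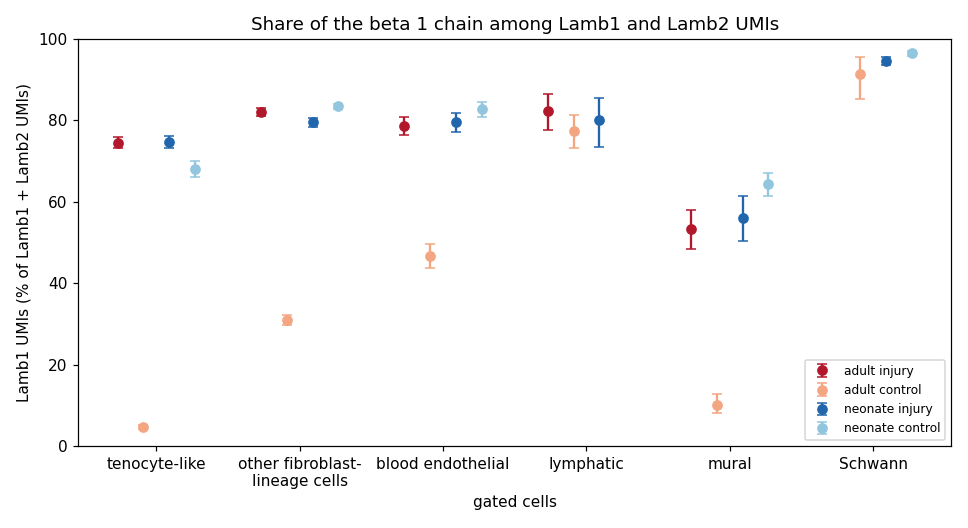
Share of Lamb1 among Lamb1 and Lamb2 UMIs in gated cells of adult injury, adult control, neonate injury and neonate control from left to right, with 95% exact binomial intervals; sums under 50 cells are not drawn. The point of adult control is far below the others in tenocyte-like cells (4.71%) and mural cells (10.2%) but not in lymphatic endothelium (77.4%).

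Tenocyte-like cells were those of the lineage with at least 3 of 7 tendon markers. Cells with at least 2 of 6 perineurial markers were left out of both groups, here and above. The tenocyte-like cells were set against the other fibroblast-lineage cells of the same library. This was a difference of cells from shared libraries, given with no test. Of 34 genes with at least 50 UMIs, 3 were at least 2-fold higher in tenocyte-like cells in 4 of 4 libraries, where 1.63% of 17624 genes were, and 1 was at least 2-fold lower in all 4, where 2.34% were. Itga10 had 12.7, 84.2, 15.6 and 22.1 CPM in tenocyte-like cells of adult injury, adult control, neonate injury and neonate control and 4.76, 8.46, 5.74 and 5.18 CPM in the other cells. Itga2 had 14.1, 70.1, 72.4 and 66.7 CPM against 4.42, 18.6, 19.1 and 26.5 CPM, and Lama3 had 2.08 to 17.9 CPM against lower levels in each library. Itgb3 was the one lower, at 22.0, 3.52, 10.1 and 9.40 CPM in tenocyte-like cells and 60.8, 39.4, 70.4 and 37.8 CPM in the others.

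Of the 1777 fibroblast-lineage cells of adult injury 608 were tenocyte-like, against 2289 of 3650 in adult control, so values of the whole lineage also carry this difference in makeup. Within the subsets, Itga5 had 324 and 66.6 CPM in tenocyte-like cells of adult injury and adult control, and 434 and 139 CPM in the other cells. Itga10 had 12.7 and 84.2 CPM in the tenocyte-like cells, and 4.76 and 8.46 CPM in the others, and Itgb3 had 22.0 and 3.52 CPM in the tenocyte-like cells, and 60.8 and 39.4 CPM in the others, where both genes stayed within 2-fold. Lama2 had 96.4 and 338 CPM and 139 and 705 CPM, Lamb2 had 55.9 and 191 CPM and 47.0 and 216 CPM, and Lamb1 had 163 and 9.45 CPM and 215 and 96.9 CPM, each pair first in tenocyte-like and then in other cells. Tenocyte-like cells of adult injury had more UMIs, with a median of 27187, against 18285 in the other cells of that library. These medians were 11548 and 11485 in adult control, 6936 and 5919 in neonate injury, and 10037.5 and 11151 in neonate control. Neonate control thus went the other way. Cells with 2 or more of 6 perineurial markers, the sleeve around nerve bundles, had 189, 29.5 and 5.15 CPM of Itgb4 in adult control, neonate injury and neonate control and 321, 242 and 233 CPM of Itga6, from 52, 226 and 366 cells.

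**Figure D5:**
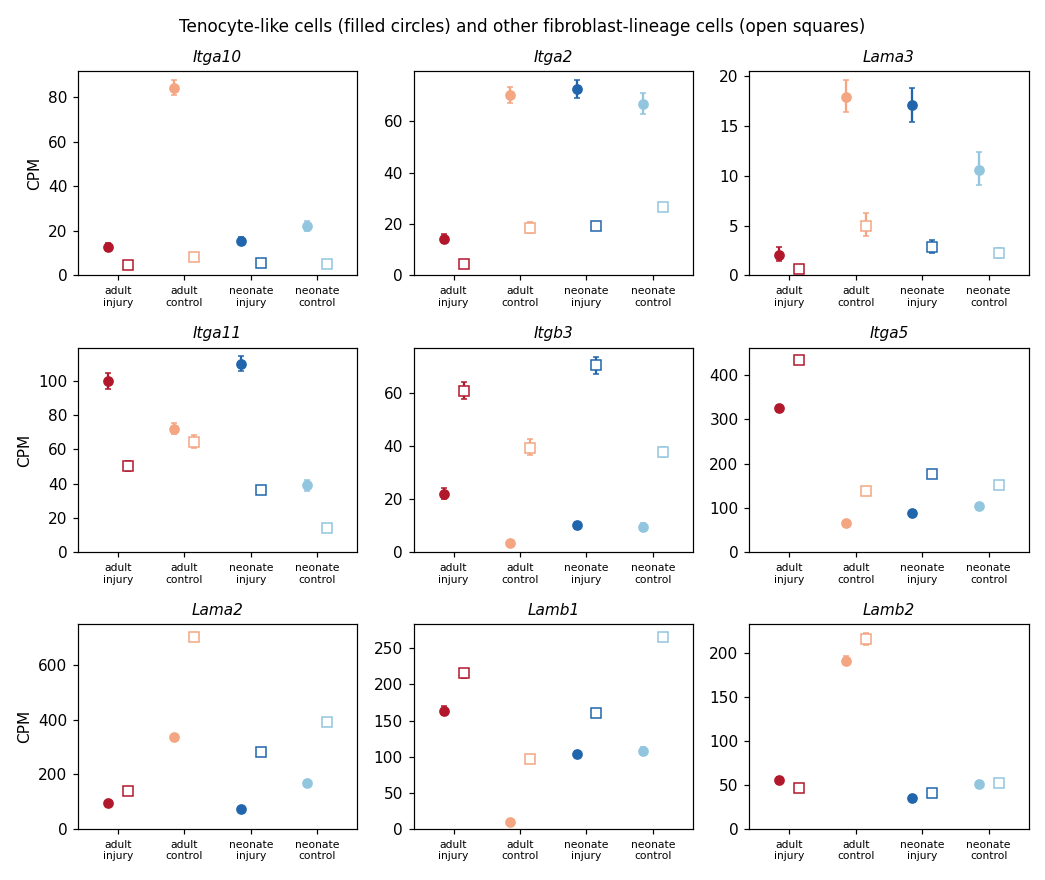
CPM of 9 genes in tenocyte-like cells (filled circles) and other fibroblast-lineage cells (open squares) of adult injury, adult control, neonate injury and neonate control, with 95% exact Poisson intervals that can be smaller than the symbols. Itga10 stands out in tenocyte-like cells of adult control at 84.2 CPM, and Itgb3 is lower in tenocyte-like cells of every library.

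Genes that work with these chains were described from 6 lists, chosen with earlier results of these data known. Of 8 basement membrane partners of laminin (nidogens, perlecan, agrin and collagens IV, XV and XVIII), all measured, 7 were at least 2-fold higher and 0 lower in endothelial cells of adult injury than of adult control, where 9.34% and 7.81% of all genes were, with a median log2 ratio of 2.07, against 0.03 for all genes. In mural cells 6 were higher and 0 lower, where 14.9% and 10.6% of all genes were, with a median of 1.79, against 0.15 for all genes. Col4a1 had 2646 and 577 CPM and Col15a1 975 and 178 CPM in endothelial cells. In the fibroblast lineage the list was split, with 3 higher (16.5% of all genes) and 3 lower (15.3%): Nid2 had 48.9 and 9.77 CPM but Col4a1 84.6 and 262 CPM. Between adult control and neonate control, 7 of 8 were lower in endothelial cells (9.58% of all genes), 5 of 8 in mural cells (12.7%) and 3 of 8 in the fibroblast lineage (17.8%), and 0 were higher in any of the 3 classes. The same held for 6 of 7 measured in macrophages (9.42%), 5 of 8 in myogenic cells (21.6%) and 1 of 8 in Schwann cells (15.5%), again with 0 higher.

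Of 14 integrin ligands, 12 were measured in fibroblasts of adult injury and adult control, with 4 higher and 6 lower, where 16.5% and 15.3% of all genes were, as for the other lists of this comparison, and a median log2 ratio of -0.78. Tnc (tenascin C) had 1812 and 122 CPM and Postn (periostin) 5215 and 402 CPM, and both were also at least 2-fold higher in endothelial cells (241 and 9.49 CPM, and 322 and 17.0 CPM) and in mural cells (933 and 37.7 CPM, and 1537 and 86.4 CPM). Endothelial Postn stayed below 10% of the fibroblast level in both libraries and was thus possible free RNA. Of 21 focal adhesion adaptors, 5 of 19 measured were higher and 2 lower in the same comparison, not far from the shares of all genes; the median was 0.30, and Zyx (zyxin) had 194 and 42.2 CPM and Lims2 10.3 and 69.8 CPM. Of 6 genes for latent TGF-beta and its carriers, 2 were higher and 0 lower (median 0.63), and Lrrc32 had 33.0 and 3.87 CPM. Of 6 netrin genes, relatives of the laminin short arm, 4 of 5 measured were lower and 0 higher (median -1.21), with Ntng1 at 7.78 and 64.8 CPM. Of 9 laminin receptors that are not integrins, 3 of 8 measured were lower in the fibroblast lineage and 4 of 8 in mural cells (10.6% of all genes), where Dmd (dystrophin) had 869 and 2425 CPM, and 0 were higher in either class (medians -0.52 and -1.16).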

How the data were processed

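Cells of 4 Achilles tendon libraries were counted as UMI counts per gene and barcode, deposited by the authors unnormalised, made by Cell Ranger 8.0.1, as read from the file headers, and on GRCm39 per the submitters' processing notes. Barcodes entered with 500 or more genes, 1000 or more UMIs and a mitochondrial share of 15% or less, and the top Scrublet scores (scanpy 1.11.5) were removed at 0.8% per 1000 barcodes. A cell was gated to a class by at least 3 markers and a lead of 2 over the next class, and counts were summed where a library gave 50 cells or more. These thresholds were set after the data were seen, and the genes and lists were chosen with earlier results of these data known.

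Conditions were compared by log2 ratios of CPM with 0.5 counts added and exact binomial 95% intervals, for genes with at least 50 UMIs in the libraries compared; a ratio of 2-fold or more was counted. Classes were compared with edgeR 4.0.16 (TMM, quasi-likelihood test, library as a block, Benjamini-Hochberg) in R 4.3.3; the cells of different classes come from the same animals of a library, so the library pairs the sums. DESeq2 1.42.0 and the choices under the closing section were alternatives. The fit was tested on simulated data. The named genes are members of at least 20 CPM in some sum, those at least 2-fold apart with 10 CPM in the higher library, and the largest ratios of each list. The values of 1 gene of the set are not reported here.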

Additional observations from a re-analysis of the deposited data

Results flagged for a closer look

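Lama3 in fibroblast-lineage cells differed in opposite directions after injury at the 2 ages. It had 1.37 CPM in adult injury and 13.1 CPM in adult control, a log2 ratio of -3.25, and 9.16 CPM in neonate injury and 4.57 CPM in neonate control, a log2 ratio of 1.00. The difference of the 2 ratios, adults minus neonates, was -4.25 and was not tested, as each value comes from 1 library. Among Y-positive cells without Xist the neonatal log2 ratio was 1.28. Tenocyte-like cells, which had more Lama3 than the other cells of the lineage in each library, made up 608 of 1777 lineage cells in adult injury, 2289 of 3650 in adult control, 3109 of 7690 in neonate injury and 1340 of 5216 in neonate control. Within tenocyte-like cells Lama3 had 2.08, 17.9, 17.1 and 10.6 CPM in the same order, and within the other cells 0.65, 4.999, 2.82 and 2.22 CPM. Adult injury was at least 2-fold below adult control in both subsets, and neonate injury lay above neonate control within 2-fold in both. Blood endothelium, which leads the gene in adults, had 34.1, 75.5, 32.4 and 19.8 CPM in adult injury, adult control, neonate injury and neonate control.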

How the results depend on the processing

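Among genes called lower than the mean of the other classes, the counts were small and moved most, and the cause was not tested. The DESeq2 Wald test gave 7 in endothelial cells, 7 in the fibroblast lineage, 10 in macrophages, 7 in mural, 8 in myogenic and 7 in Schwann cells. With no filter on low counts there was 1 in endothelial cells and 0 in macrophages, without the library block 1 in endothelial and 1 in Schwann cells, with cluster-named classes 4 in endothelial cells, 4 in the fibroblast lineage, 6 in macrophages and 4 in mural cells, and with doublets kept 1 in Schwann cells. The fit on 4 classes, added after seeing the data and with fewer classes in its mean, called 10 higher and 10 lower in endothelial cells, 8 lower in the fibroblast lineage, 7 higher and 20 lower in macrophages, and 11 higher and 6 lower in mural cells. Leaving out 1 library gave 15 to 17 higher and 1 to 6 lower in endothelial cells, 15 to 19 and 1 to 5 in the fibroblast lineage, 10 to 12 and 1 to 4 in macrophages, 16 to 19 and 1 to 5 in mural cells, 11 to 15 and 1 to 3 in Schwann cells, and 4 to 8 and 3 to 5 in myogenic cells; the 4 of the last, and the highest lower counts of endothelial, fibroblast-lineage, macrophage and mural cells, came without neonate control.

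Of 136 ratios of at least 2-fold, 130 stayed so when centred on the median gene, 128 with cluster-named classes, 131 with doublets kept, 134 with a stricter gate and 117 with the mean of single-cell CPM, and 18 of 25 in cells positive for Y-linked genes and without Xist. The counts that moved were, for neonate injury against neonate control, 4 in the fibroblast lineage in cells with Y-linked UMIs, 0 in endothelial cells with doublets kept and 0 when centred, 1 in mural cells with clusters, and with a minimum of 20 UMIs 8 in mural and 6 in Schwann cells. The same minimum gave 13 in endothelial cells of adult injury against adult control, and 11 in Schwann cells and 9 in macrophages of adult control against neonate control. Reversed were Itga4 in adult injured fibroblasts (log2 ratio 0.22 with the mean of single-cell CPM, -1.52 with sums), Lama5 in neonate injured fibroblasts (log2 ratio 0.035 in cells with Y-linked UMIs, -1.08 in all) and Lama2 in endothelial cells of adult control against neonate control (0.92 with clusters, -1.12 with gated cells). Depth limits the smallest sums, such as the 77 Schwann and 63 myogenic cells of adult control.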
